A study of Mus musculus with 8 samples.

Results

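The genes described here are 9 genes of intestinal macrophages: the tartrate-resistant acid phosphatase gene Acp5, the secreted DNase gene Dnase1l3, the Deltex ubiquitin ligase gene Dtx4, the osteopontin gene Spp1, the tetraspanin genes Cd63 and Cd9, and the pan-macrophage genes Lyz2, Cd68 and Aif1. They were taken by symbol from a table of 14980 genes; 9 of 9 were found and 9 of 9 passed the filter on low counts, which kept 14184 genes. They were chosen by their measured difference in this same contrast, GPR35-positive against GPR35-negative cells, so their values are given as a description without a test. Tests are given for relatives and partners of these genes.

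RNA was sequenced from GPR35-positive and GPR35-negative cells labelled as macrophages of the intestinal lamina propria, 4 libraries each. Both populations were sorted as MHCII+CD64+ cells from the same 4 male mice; the labels give no strain, age, genotype or treatment. GPR35 is a G protein-coupled receptor, and the sort by its staining sets cells with the receptor against cells without it. Libraries were made by SMART-Seq v4, a full-length cDNA amplification for small amounts of RNA, and held 33776161 to 48609595 counts in GPR35-positive and 15999301 to 30071863 counts in GPR35-negative samples. The receptor's own transcript, Gpr35, averaged 73.3 ± 14.9 CPM (counts scaled to the size of the library) in GPR35-positive and 2.97 ± 1.46 CPM in GPR35-negative libraries (SD, n = 4; log2 fold change 4.61 ± 0.39 SE, edgeR adjusted p = 0.000107). Across all genes, 2617 were higher and 2769 lower in GPR35-positive cells, 38.0% of those tested.

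Many macrophages of the gut are replaced by blood monocytes that mature in the lamina propria, where they take up dead cells and microbes and digest them in lysosomes. Acid phosphatases, lysosomal membrane proteins and lysozyme belong to that digestive equipment, while DNASE1L3 is secreted and degrades DNA of dead cells in chromatin and microparticles. Osteopontin is a secreted phosphoprotein bound by integrins and CD44, tetraspanins organise membrane proteins, and Deltex ligases act on Notch signaling. LYZ2, CD68 and AIF1, also called IBA1, are used widely to mark macrophages.

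The labelled cell type was checked against 15 macrophage identity genes that include none of the 9. Their summed level was 20859 to 23720 CPM in GPR35-positive and 2439 to 9946 CPM in GPR35-negative libraries, none was at 0 throughout a group, and 15 of 15 were higher in GPR35-positive cells. GPR35-negative replicate 1 held the 9946 CPM, and replicates 2 to 4 of that population held 4935, 2439 and 3084 CPM. Markers of plasma and B cells summed to 1215 to 2654 CPM in GPR35-positive and 73492 to 143900 CPM in GPR35-negative libraries; 12 of 12 were in the table, none was at 0 throughout a group, and 11 of 11 tested were lower in GPR35-positive cells. Stromal and endothelial markers summed to 222 to 1058 CPM in GPR35-positive and 3134 to 7159 CPM in GPR35-negative libraries, with 8 of 10 lower in GPR35-positive cells and none at 0 throughout a group. In every GPR35-negative library the plasma and B cell markers summed to more than the macrophage identity genes. The markers thus did not bear out the macrophage label for the whole of that population. The part of these other cells in the differences described here was not tested, and in bulk samples fewer cells of a type and less RNA per cell cannot be told apart.

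**Figure D1:**
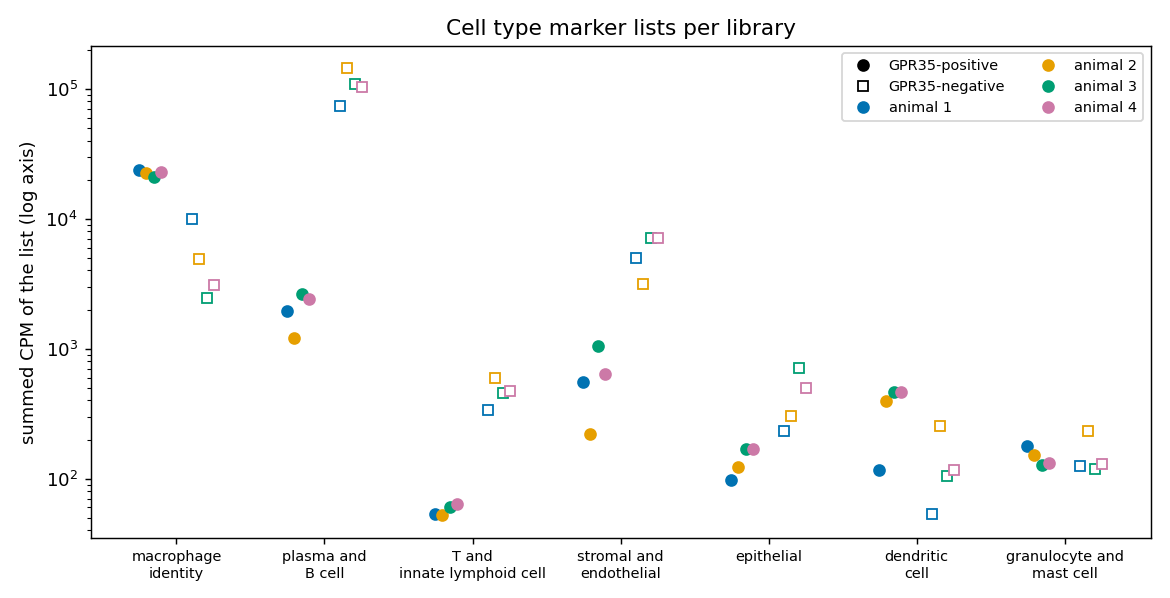
Summed CPM of each marker list (log axis) per library, with filled circles for GPR35-positive and open squares for GPR35-negative libraries, coloured by animal. Macrophage identity genes sum to 20859 CPM or more in every GPR35-positive library and to 9946 CPM or less in every GPR35-negative library, and plasma and B cell markers to 2654 CPM or less and 73492 CPM or more.

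All CPM values were scaled by TMM, which assumes that most genes do not differ. Scaling each library instead to the 15 macrophage identity genes moved the median log2 fold change of all genes to -2.71, against -0.05 with TMM. A gene near -2.71 on that scale sits at the middle of all genes, and a gene near 0 differs as much as the identity genes do. Both values are given below where they differ in sign, unless stated otherwise.

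Of the 9 genes, 8 had all 4 GPR35-positive libraries above all 4 GPR35-negative libraries, a pattern found in 21.5% of all tested genes, 0 lay below throughout (20.6% of all tested genes), and 9 of 9 were higher in the GPR35-positive library of all 4 animals, found in 29.4% of all tested genes. With identity scaling Cd63, Cd9 and Cd68 were lower in GPR35-positive cells on average. The median log2 fold change of the 9 was 2.29, against -0.05 over all genes, with a range of 0.58 for Cd9 to 4.42 for Dnase1l3. Together they took 2.02 ± 0.24% of all counts in GPR35-positive and 0.536 ± 0.313% in GPR35-negative libraries (SD, n = 4), of which Lyz2 alone took 1.75 ± 0.23% and 0.445 ± 0.296%.

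Acp5 (Entrez gene 11433, chromosome 9, 22126727 to 22135746 in GRCm38.p6) encodes tartrate-resistant acid phosphatase, the enzyme known as TRAP from osteoclasts. It stood at 616, 536, 402 and 447 CPM in GPR35-positive replicates 1 to 4. In GPR35-negative replicates 1 to 4 it stood at 63.3, 61.8, 57.3 and 57.6 CPM. The groups did not overlap, and the GPR35-negative libraries lay within a coefficient of variation of 5.01%, the smallest of the 9 genes in that population, although their macrophage identity genes ranged from 2439 to 9946 CPM. The log2 fold change was 3.06 ± 0.17 (SE), and the ratio within an animal was 9.74, 8.68, 7.01 and 7.76 in animals 1 to 4. With identity scaling the log2 fold change was 0.42.

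The RefSeq promoter table held 7 of the 9 genes, with 10 start sites. To show the sequence around which these transcripts begin, the 250 bases before the start are given for Acp5 (chr9:22130599-22130848, minus strand; of 3 listed starts the one whose following bases occur in GENCODE transcripts), Spp1 (chr5:104434861-104435110, plus strand, the first of 2 starts) and Cd68 (chr11:69666171-69666420, minus strand), from RefSeq on GRCm38.p6. Capitals mark matches on either strand to 5 motifs: GAGGAAG, the core bound by the myeloid factor PU.1; CACGTG, the E-box; TGANTCA, the AP-1 site; TGGGAA, bound by the Notch partner RBPJ; and TATAAA, the TATA box.
Acp5: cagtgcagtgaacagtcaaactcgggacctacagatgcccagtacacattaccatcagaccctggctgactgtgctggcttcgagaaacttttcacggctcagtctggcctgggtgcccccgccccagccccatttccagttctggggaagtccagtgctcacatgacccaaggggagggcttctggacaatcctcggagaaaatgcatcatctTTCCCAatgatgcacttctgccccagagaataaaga
Spp1: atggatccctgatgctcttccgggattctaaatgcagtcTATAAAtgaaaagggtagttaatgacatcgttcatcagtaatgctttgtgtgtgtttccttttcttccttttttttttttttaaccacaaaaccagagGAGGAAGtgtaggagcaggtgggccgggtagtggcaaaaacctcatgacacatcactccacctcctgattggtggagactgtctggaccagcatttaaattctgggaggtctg
Cd68: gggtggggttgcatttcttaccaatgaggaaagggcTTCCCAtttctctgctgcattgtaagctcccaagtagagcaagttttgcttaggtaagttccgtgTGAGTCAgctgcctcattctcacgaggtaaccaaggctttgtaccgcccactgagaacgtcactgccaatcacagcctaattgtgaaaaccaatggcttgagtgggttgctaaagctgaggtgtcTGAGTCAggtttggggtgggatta
Acp5 held TGGGAA on the other strand, 36 bases before the start. Spp1 held GAGGAAG 113 and TATAAA 211 bases before its start, and Cd68 held TGANTCA at 149 and 24 bases and TGGGAA on the other strand at 214 bases. Over any listed start, TGGGAA was in 5 of the 7 genes (24.1% of 27025 genes), GAGGAAG in 2 (3244 of 27025 genes), TGANTCA in 1 (7.82%), TATAAA in 1 (14.3%) and CACGTG in 0 (6.86%). Matches to different motifs did not overlap, and a match describes letters only.

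Dnase1l3 (Entrez gene 13421, chromosome 14, 7965187 to 7994760) encodes a secreted relative of DNase I. Its level was 110, 97.8, 71.5 and 77.9 CPM in GPR35-positive replicates 1 to 4. In GPR35-negative replicates 1 to 4 it was 6.20, 4.81, 4.64 and 1.10 CPM, which rest on 203, 81, 116 and 33 counts. The groups did not overlap, and GPR35-negative replicate 4 was the lowest library, so that the ratio was 71.0 in animal 4 and 17.7, 20.3 and 15.4 in animals 1 to 3. The log2 fold change was 4.42 ± 0.47 (SE), the highest of the 9 genes, 4.09 without GPR35-negative replicate 4, and 1.94 with identity scaling.

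Spp1 (Entrez gene 20750, chromosome 5, 104435111 to 104441053) encodes osteopontin, a ligand of integrins and CD44. It was at 99.0, 150, 93.0 and 105 CPM in GPR35-positive replicates 1 to 4. GPR35-negative replicates 1 to 4 had 13.3, 10.995, 3.88 and 5.39 CPM. The groups did not overlap; replicate 2 was the highest GPR35-positive library, and GPR35-negative replicates 3 and 4 were lower than replicates 1 and 2. The log2 fold change was 3.74 ± 0.41 (SE), and 1.41 with identity scaling.

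Dtx4 (Entrez gene 207521, chromosome 19, 12466329 to 12502179) encodes an E3 ubiquitin ligase of the Deltex family. Its level was 197, 133, 138 and 158 CPM in GPR35-positive replicates 1 to 4. It was 42.2, 31.3, 17.3 and 19.3 CPM in GPR35-negative replicates 1 to 4. Replicate 1 was the highest library in both populations, and the groups did not overlap. The log2 fold change was 2.51 ± 0.30 (SE), and 0.10 with identity scaling.

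Cd63 (Entrez gene 12512, chromosome 10, 128896231 to 128912822) encodes a tetraspanin of late endosomes, lysosomes and exosomes. It was at 384, 378, 332 and 364 CPM in GPR35-positive replicates 1 to 4, and at 232, 118, 129 and 186 CPM in GPR35-negative replicates 1 to 4. The groups did not overlap, and the spread was smaller among the GPR35-positive libraries (coefficient of variation 6.38%) than among the GPR35-negative ones (32.0%). The log2 fold change was 1.13 ± 0.22 (SE), and -1.42 with identity scaling.

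Cd9 (Entrez gene 12527, chromosome 6, 125460266 to 125494760) encodes a tetraspanin of the cell surface that many cell types carry. Its level was 219, 384, 351 and 399 CPM in GPR35-positive replicates 1 to 4, and 113, 124, 341 and 327 CPM in GPR35-negative replicates 1 to 4. The groups overlapped: GPR35-negative replicates 3 and 4 exceeded GPR35-positive replicate 1, and in animals 3 and 4 the populations differed by a ratio of 1.03 and 1.22, against 1.94 and 3.10 in animals 1 and 2. The log2 fold change was 0.58 ± 0.40 (SE), and -2.35 with identity scaling. Epithelial markers, of which 10 of 10 were in the table and none at 0 throughout a group, summed to 97.6, 122, 170 and 170 CPM in GPR35-positive and 234, 304, 710 and 498 CPM in GPR35-negative replicates 1 to 4, and 3 of 10 were lower in GPR35-positive cells. Stromal and endothelial markers summed to 559, 222, 1058 and 642 CPM in GPR35-positive replicates 1 to 4. In GPR35-negative replicates 1 to 4 they summed to 4973.5, 3133.6, 7120.5 and 7159 CPM. Plasma and B cell markers summed to 1215 to 2654 CPM in GPR35-positive and 73492 to 143900 CPM in GPR35-negative libraries. The part of any of these cells in the level of Cd9 was not tested.

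Lyz2 (Entrez gene 17105, chromosome 10, 117277541 to 117282272) encodes the macrophage lysozyme. It was at 17168, 22865, 16869 and 20556 CPM in GPR35-positive replicates 1 to 4, and at 7919, 4257, 1771 and 2356 CPM in GPR35-negative replicates 1 to 4. Cd68 (Entrez gene 12514, chromosome 11, 69664213 to 69666170), which encodes a lysosomal membrane glycoprotein of the LAMP family, was at 806, 971, 833 and 899 CPM in GPR35-positive and 406, 190, 95.0 and 136 CPM in GPR35-negative replicates. Aif1 (Entrez gene 11629, chromosome 17, 35170986 to 35176083), which encodes an actin-binding protein, was at 633, 657, 546 and 544 CPM in GPR35-positive and 242, 95.7, 59.9 and 89.0 CPM in GPR35-negative replicates. For all 3 genes the groups did not overlap, and GPR35-negative replicate 1 was the highest of its population, as it was for the macrophage identity genes. The log2 fold changes were 2.25 ± 0.45 for Lyz2, 2.08 ± 0.41 for Cd68 and 2.29 ± 0.40 for Aif1 (SE). With identity scaling they were 0.02 for Lyz2, -0.17 for Cd68 and 0.01 for Aif1.

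**Figure D2:**
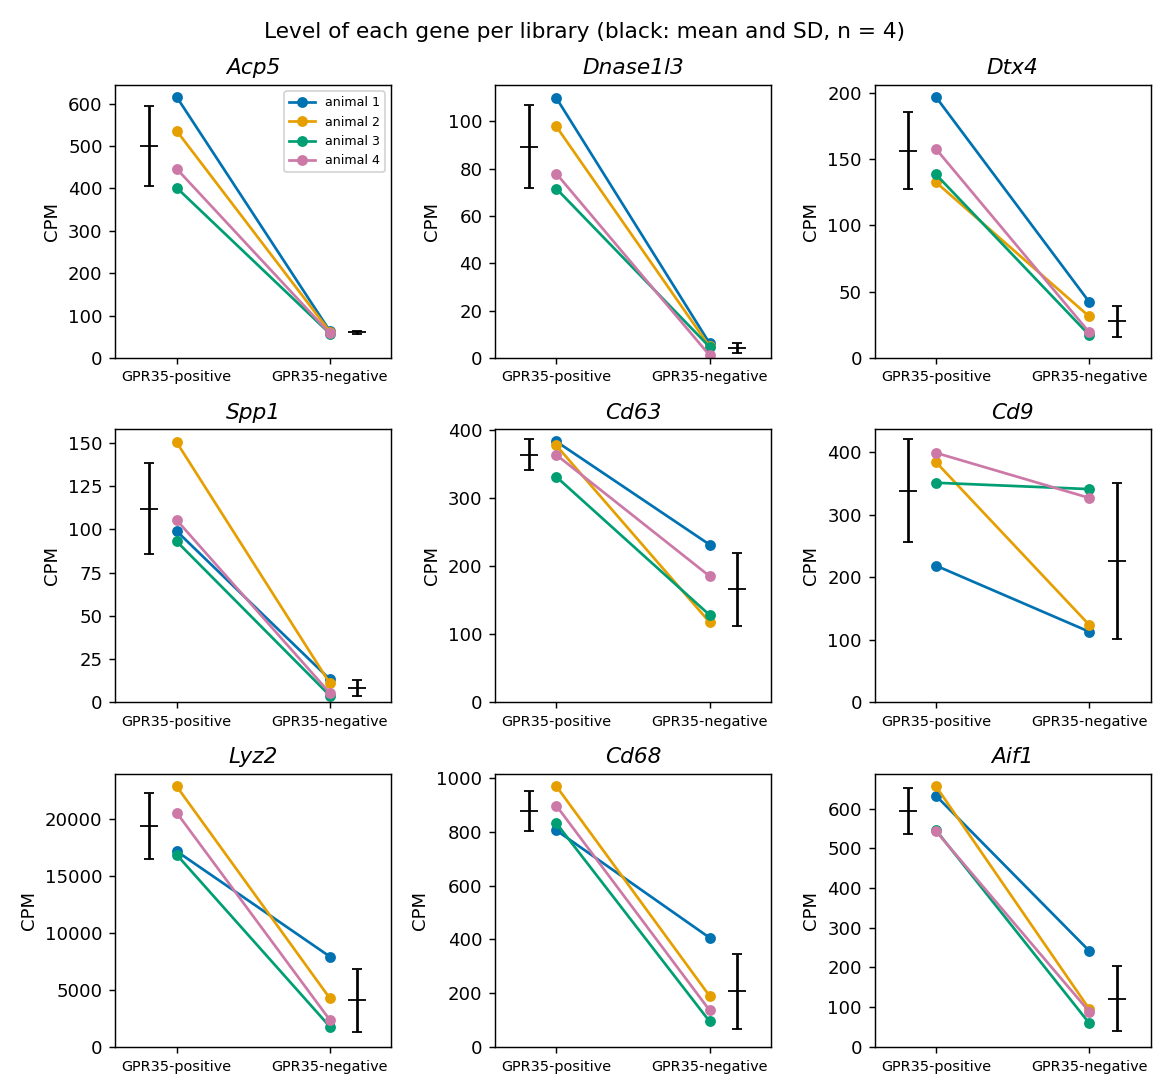
CPM of each gene (linear axis from 0) in the GPR35-positive and GPR35-negative library of each animal, joined by a line, with the mean and SD of 4 libraries in black. The 4 GPR35-negative libraries of Acp5 lie at 57.3 to 63.3 CPM while those of Cd68 lie at 95.0 to 406 CPM, and for Cd9 the populations overlap.

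The animals differed in how far apart the populations were, and not in the same order for each gene. In animal 1 the ratio of GPR35-positive to GPR35-negative CPM was 2.17 for Lyz2, 1.98 for Cd68 and 2.62 for Aif1, whereas in animals 2 to 4 it was 5.37 to 9.53, 5.12 to 8.77 and 6.11 to 9.12. Acp5 ran the other way, with its highest ratio in animal 1. Dtx4 had ratios of 4.66 and 4.24 in animals 1 and 2 and of 8.02 and 8.15 in animals 3 and 4, and Spp1 had 7.45 in animal 1 and 13.7 to 24.0 in the others.

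**Figure D3:**
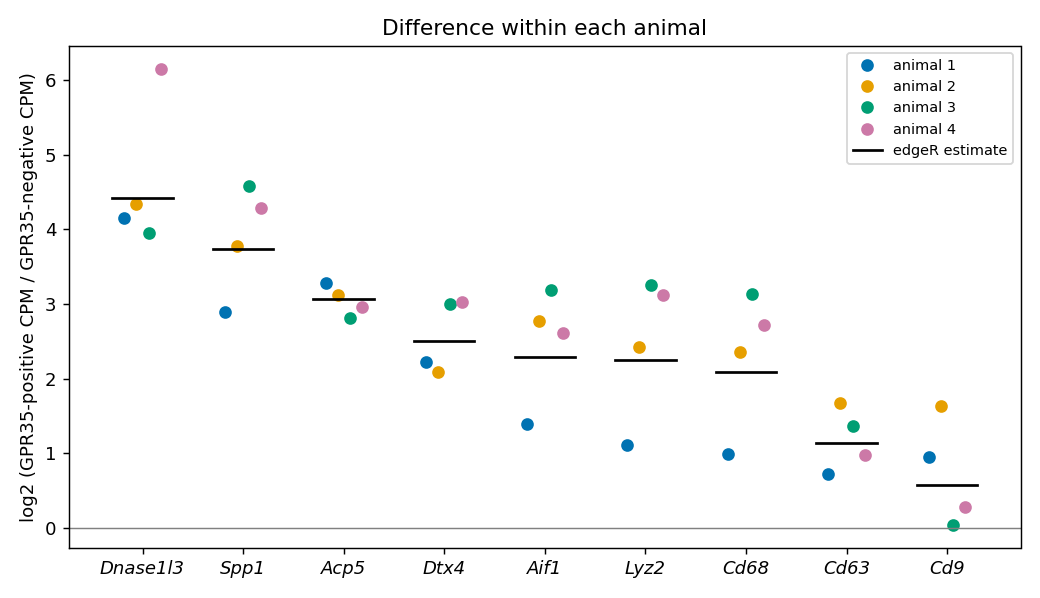
Log2 ratio of GPR35-positive to GPR35-negative CPM within each of the 4 animals, by gene, with the edgeR estimate as a bar. The ratios of Acp5 lie between 2.81 and 3.28, those of Cd68 between 0.99 and 3.13 and those of Dnase1l3 between 3.95 and 6.15; with identity scaling the estimates of Cd63, Cd9 and Cd68 fall below 0.

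Levels of different genes were compared per kilobase of gene length (RPKM, with the deposited length). In GPR35-positive libraries Lyz2 was highest at 18320 ± 2716 RPKM (SD, n = 4), followed by Cd68 at 704 ± 58.9 and Aif1 at 680 ± 66.8 RPKM, whose ranges overlapped. Acp5 at 310 ± 59.1, Cd63 at 301 ± 19.2 and Cd9 at 284 ± 68.96 RPKM overlapped each other, Spp1 stood alone at 67.5 ± 15.7 RPKM, and Dtx4 at 27.1 ± 5.03 and Dnase1l3 at 24.1 ± 4.79 RPKM overlapped. In GPR35-negative libraries Lyz2 was again highest at 3856 ± 2624 RPKM, and Cd9 at 190 ± 105, Cd68 at 166 ± 111, Aif1 at 139 ± 93.4 and Cd63 at 137 ± 43.9 RPKM overlapped. Acp5 lay below them at 37.1 ± 1.86 RPKM, Spp1 at 5.06 ± 2.70 and Dtx4 at 4.77 ± 2.01 RPKM overlapped, and Dnase1l3 was lowest at 1.13 ± 0.59 RPKM.

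Set against Cd68 in the same library, which removes the scaling of the libraries, the genes parted. Dnase1l3 was at -4.88 ± 0.31 log2 units relative to Cd68 in GPR35-positive and -7.23 ± 1.10 in GPR35-negative libraries (SD, n = 4), without overlap. Spp1 was at -3.40 ± 0.21 in GPR35-positive and -4.99 ± 0.34 in GPR35-negative libraries, also without overlap. Cd63 stood the other way, at -1.22 ± 0.13 in GPR35-positive and -0.11 ± 0.69 in GPR35-negative libraries, without overlap. Cd68, itself chosen on this contrast, had a log2 fold change of 2.08 with TMM, against -0.05 at the median of all genes. A gene at that median also lies lower relative to Cd68 in GPR35-positive cells. How many of all genes parted from Cd68 without overlap was not counted.

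Acp5 relative to Cd68 was -0.76, -1.23, -1.43 and -1.38 in GPR35-positive replicates 1 to 4, against -3.06, -1.99, -1.10 and -1.62 in GPR35-negative replicates 1 to 4. Animals 1 and 2 had the higher ratio in GPR35-positive cells by a wide margin, animal 4 by a small one, and animal 3 had it in GPR35-negative cells. Dtx4 (-4.71 ± 0.35 in GPR35-positive and -5.00 ± 0.35 in GPR35-negative libraries), Lyz2 (4.70 ± 0.10 and 4.51 ± 0.16) and Aif1 (-0.05 ± 0.16 and -0.24 ± 0.16) overlapped between the populations. Cd9 was at -1.35 ± 0.32 in GPR35-positive and 0.23 ± 1.70 in GPR35-negative libraries, and the populations overlapped.

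**Figure D4:**
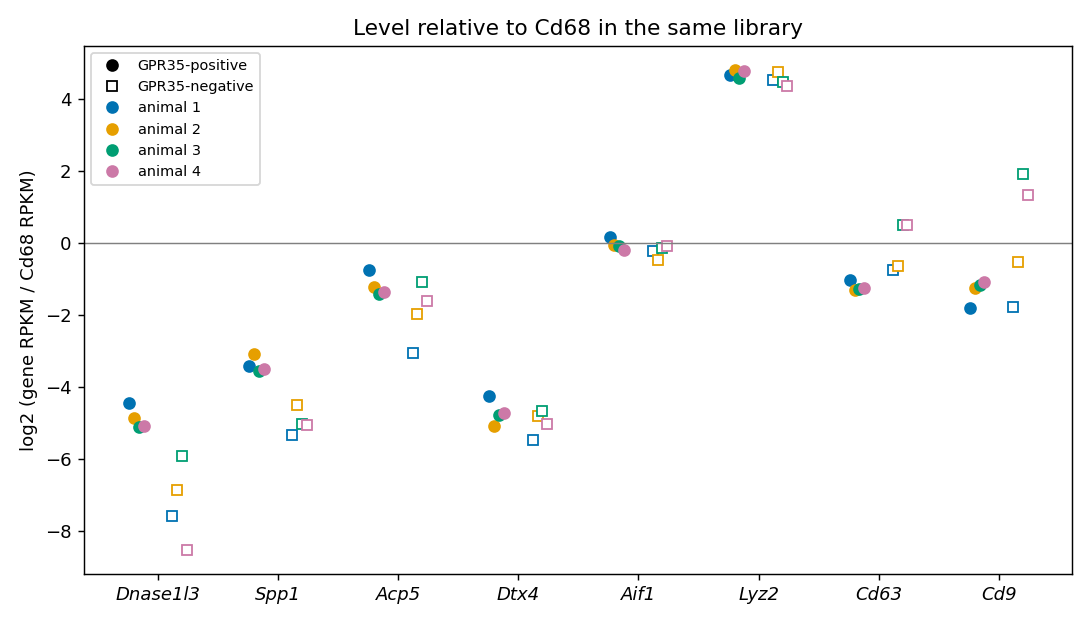
Log2 ratio of each gene's RPKM to that of Cd68 in the same library, with filled circles for GPR35-positive and open squares for GPR35-negative libraries, coloured by animal. Dnase1l3 and Spp1 lie higher in all GPR35-positive libraries, Cd63 lower, and the other 5 genes overlap. Cd68 itself had a log2 fold change of 2.08 with TMM, so a gene without a difference would also lie lower here.

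The genes with the most similar pattern were taken as the 3 with the smallest root-mean-square difference of centred log2 CPM over the 8 libraries, among the 9407 genes whose mean log2 CPM reached 3. For Acp5 these were Abi3 (0.16 log2 units), Rasgrp1 (0.22) and Tep1 (0.26), and for Dtx4 they were Soat1 (0.16), Tep1 (0.19) and Ciita (0.20). For Dnase1l3 they were Fgr (0.24), Tlr12 (0.25) and Dgat2 (0.26), and for Spp1 Tspan33 (0.17), Rgs1 (0.24) and Pilra (0.25). Lyz2 was closest to Clec4a2 (0.09), Ly86 (0.09) and Tyrobp (0.12), Cd68 to C1qa, Apoe and C1qb (0.11 each), and Aif1 to Shtn1 (0.14), Ptafr (0.15) and Tyrobp (0.15). Cd63 was closest to Pgd (0.11), Fam234a (0.12) and Cyp4v3 (0.13). Cd9 was closest to Afdn (0.20), Sumf2 (0.29) and Lrrc42 (0.29).

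Some counts of these genes could come from another transcript. Of the windows of 50 bases in the longest GENCODE transcript of Lyz2, 15.4% also occurred in Lyz1, the adjacent lysozyme gene, and the counts per Lyz1 count were 23.0 ± 1.76 in GPR35-positive and 27.1 ± 1.94 in GPR35-negative libraries (SD, n = 4). In Cd9 14.3% of windows lay antisense to the lncRNA Gm26728, in Acp5 6.72% lay antisense to 6530413G14Rik, in Spp1 9.05% were shared with Gm42793, and in Cd63 7.17% with the pseudogene Cd63-ps. The library kit does not mark strand, so reads of such partners cannot be told apart. Dtx4, Cd68 and Aif1 shared 0 windows.

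Relatives and partners were tested over all genes, leaving out the 9 themselves. Over 8 lists, 58 of 123 tested genes were higher and 15 lower in GPR35-positive cells (edgeR adjusted p under 0.05), against 18.5% higher and 19.5% lower among all tested genes. With identity scaling 2 were higher and 84 lower, against 65 higher and 12406 lower among all 14184 tested genes. Counts of single lists below are to be read beside these values for all genes. The lists were drawn up with results of these libraries known, so their direction is not independent evidence.

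Genes of the osteoclast program, the setting in which TRAP is best known, parted into both directions. Of 18 tested, 11 were higher and 2 lower in GPR35-positive cells, against 18.5% and 19.5% of all tested genes. Their median log2 fold change was 1.19. With identity scaling 0 were higher and 10 lower, against 65 and 12406 of all 14184 tested genes. Ocstamp, which encodes a transmembrane protein of osteoclast fusion, averaged 73.2 ± 10.3 CPM in GPR35-positive and 2.38 ± 1.80 CPM in GPR35-negative libraries (SD, n = 4; log2 fold change 4.90 ± 0.75, edgeR adjusted p = 0.00153). The kinase gene Src rose by 2.10 ± 0.20, the transcription factor gene Nfatc1 by 1.34 ± 0.20 and the proton pump subunit gene Tcirg1 by 1.61 ± 0.26 log2 units (edgeR adjusted p = 0.000181, 0.00131 and 0.00185), and with identity scaling these 3 were at -0.56, -1.20 and -0.86. Ctsk, which encodes the collagen-degrading cathepsin K, was at 1.84 ± 1.49 CPM in GPR35-positive and 26.5 ± 4.24 CPM in GPR35-negative libraries (-3.84 ± 0.60, edgeR adjusted p = 0.00163). In the same libraries the stromal and endothelial markers summed to 222 to 1058 and 3134 to 7159 CPM, and their part in the level of Ctsk was not tested.

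Of 11 other tested genes that digest DNA, GPR35-positive cells had 4 higher and 0 lower, against 18.5% and 19.5% of all tested genes. Their median log2 fold change was 0.51. With identity scaling 0 were higher and 10 lower, against 65 and 12406 of all 14184 tested genes. The lysosomal nuclease gene Dnase2a rose by 1.20 ± 0.22 and the cytosolic exonuclease gene Trex1 by 1.01 ± 0.21 log2 units (edgeR adjusted p = 0.00359 and 0.00544; with identity scaling -1.28 and -1.49). Pld4, an endolysosomal exonuclease gene, was at 2.05 ± 0.45 (edgeR adjusted p = 0.00797) and Dnase1l1 at 1.16 ± 0.27 (edgeR adjusted p = 0.0101; with identity scaling -0.16 and -1.26). Both calls ended without replicate 2 or 4 (edgeR adjusted p up to 0.052 for Pld4 and 0.0706 for Dnase1l1). Without replicate 4 the number higher was 2. Dnase1 itself was at 2.04 ± 0.44 CPM in GPR35-positive and 1.49 ± 0.44 CPM in GPR35-negative libraries and did not pass (0.44 ± 0.49, edgeR adjusted p = 0.498; with identity scaling -2.26, adjusted p = 0.0403); it was named after its values were seen.

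Among 4 other acid phosphatase genes tested, 1 was higher and 0 were lower, against 18.5% and 19.5% of all tested genes. Their median log2 fold change was 0.64. With identity scaling 0 were higher and 2 lower, against 65 and 12406 of all 14184 tested genes. Without GPR35-negative replicate 2 the number higher was 2. Acp2, which encodes a lysosomal acid phosphatase, averaged 317 ± 42.1 CPM in GPR35-positive and 74.6 ± 32.9 CPM in GPR35-negative libraries (SD, n = 4; 2.09 ± 0.28, edgeR adjusted p = 0.000839; with identity scaling -0.36). Acp6 was at 29.6 ± 2.44 CPM in GPR35-positive and 24.9 ± 3.04 CPM in GPR35-negative libraries and did not pass (0.25 ± 0.14, edgeR adjusted p = 0.201). With identity scaling it was called lower, at -2.37 (edgeR adjusted p = 0.000214), beside -2.71 at the median of all genes.

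Of the other Deltex and Notch pathway genes 15 of 34 were higher and 3 lower in GPR35-positive cells, against 18.5% and 19.5% of all tested genes. Their median log2 fold change was 0.31. With identity scaling 0 were higher and 27 lower, against 65 and 12406 of all 14184 tested genes. The sheddase gene Adam17 rose by 1.80 ± 0.23, the receptor genes Notch1 by 1.49 ± 0.24 and Notch2 by 1.76 ± 0.31, and the target gene Hes1 by 1.44 ± 0.21 log2 units (edgeR adjusted p = 0.000625, 0.00194, 0.0029 and 0.00121). With identity scaling these 4 were at -0.70, -1.27, -0.65 and -1.29. The ligand gene Dll1 (-3.43 ± 0.80), the feedback inhibitor gene Nrarp (-2.40 ± 0.70) and Dtx1 (-4.17 ± 1.23) were lower (edgeR adjusted p = 0.00989, 0.0252 and 0.0265). Among GPR35-negative libraries Dll1 and Nrarp were highest in replicate 3 (11.5 and 42.4 CPM) and Dtx1 in replicate 2 (16.8 CPM). Plasma and B cell markers summed to 1215 to 2654 CPM in GPR35-positive and 73492 to 143900 CPM in GPR35-negative libraries, highest in replicate 2. Epithelial markers were highest in GPR35-negative replicate 3 (710 CPM). Stromal and endothelial markers were highest in GPR35-negative replicates 3 and 4, at 7120.5 and 7159 CPM. The part of any of these cells was not tested for these 3 genes.

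Within the Deltex family Dtx3l was higher (1.48 ± 0.46, edgeR adjusted p = 0.0323; with identity scaling -0.92), and Dtx2 (0.30 ± 0.20; with identity scaling -2.44) and Dtx3 (-0.09 ± 0.17) did not pass (edgeR adjusted p = 0.267 and 0.706). Several of these calls depended on which libraries were fitted. That of Dll1 ended without replicate 4 (edgeR adjusted p = 0.0553). Those of Nrarp, Dtx1 and Dtx3l ended in 6, 6 and 7 of 12 fits that left out an animal or a library, including those without replicates 2, 3 and 4 (edgeR adjusted p up to 0.106, 0.0988 and 0.0955), that of Dtx1 also with the replicate block (0.0946), and that of Dtx3l also with library-size scaling (0.0591). In these fits each of the 4 genes kept its sign, at -4.47 to -2.96 for Dll1, -2.71 to -1.66 for Nrarp, -5.32 to -2.61 for Dtx1 and 1.19 to 1.96 for Dtx3l when an animal or a library was left out. Without replicate 4 the pathway had 9 genes higher and 0 lower, without replicate 3 it had 1 lower, and without GPR35-positive replicate 4 it had 1 lower. With library-size scaling and with DESeq2 it had 5 lower each.

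Of 9 tested relatives and receptors of osteopontin, GPR35-positive cells had 5 higher and 1 lower, against 18.5% and 19.5% of all tested genes. Their median log2 fold change was 1.09. With identity scaling 0 were higher and 5 lower, against 65 and 12406 of all 14184 tested genes. The integrin genes Itgav, Itga9 and Itgb5 averaged 197 ± 61.4, 266 ± 30.0 and 973 ± 31.3 CPM in GPR35-positive libraries, against 30.9 ± 13.3, 31.3 ± 23.6 and 186 ± 107 CPM in GPR35-negative libraries (SD, n = 4). Their log2 fold changes were 2.67 ± 0.34, 3.09 ± 0.44 and 2.39 ± 0.38 (edgeR adjusted p = 0.000683, 0.00113 and 0.00179), and each call ended with identity scaling. Cd44 rose by 0.86 ± 0.15 log2 units (edgeR adjusted p = 0.00289; with identity scaling -1.76). Itgb3, whose protein pairs with that of Itgav, was at 1.87 ± 1.70 CPM in GPR35-positive and 33.6 ± 9.44 CPM in GPR35-negative libraries (-4.15 ± 0.85, edgeR adjusted p = 0.00564).

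Among the other tetraspanins 4 of 26 were higher and 10 lower in GPR35-positive cells, against 18.5% and 19.5% of all tested genes. Their median log2 fold change was -0.86. With identity scaling 1 was higher and 25 were lower, against 65 and 12406 of all 14184 tested genes. Tspan33 averaged 57.8 ± 7.23 CPM in GPR35-positive and 4.56 ± 2.44 CPM in GPR35-negative libraries (SD, n = 4; 3.66 ± 0.37, edgeR adjusted p = 0.000234), and kept its call with identity scaling at 1.34. Tspan14 (1.02 ± 0.14) and Cd81 (0.98 ± 0.14) were higher (edgeR adjusted p = 0.000934 and 0.00117), and with identity scaling they were at -1.56 and -1.66. Tspan32 (0.65 ± 0.19, edgeR adjusted p = 0.024; with identity scaling -1.96) lost its call without library scaling factors and in 6 of 12 fits that left out an animal or a library, including those without replicates 2, 3 and 4 (adjusted p up to 0.129). Rom1 (-2.61 ± 0.32), Tspan15 (-2.84 ± 0.42), Cd37 (-1.42 ± 0.24), which is known from B cells, and Tspan13 (-0.85 ± 0.17) were lower (edgeR adjusted p = 0.000543, 0.00131, 0.00245 and 0.00529). Cd82 did not pass (-0.17 ± 0.21, edgeR adjusted p = 0.558). With identity scaling it was called lower, at -2.91 (edgeR adjusted p = 6.75e-05), beside -2.71 at the median of all genes. Without replicate 4 the number of these tetraspanins lower with TMM was 5.

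**Figure D5:**
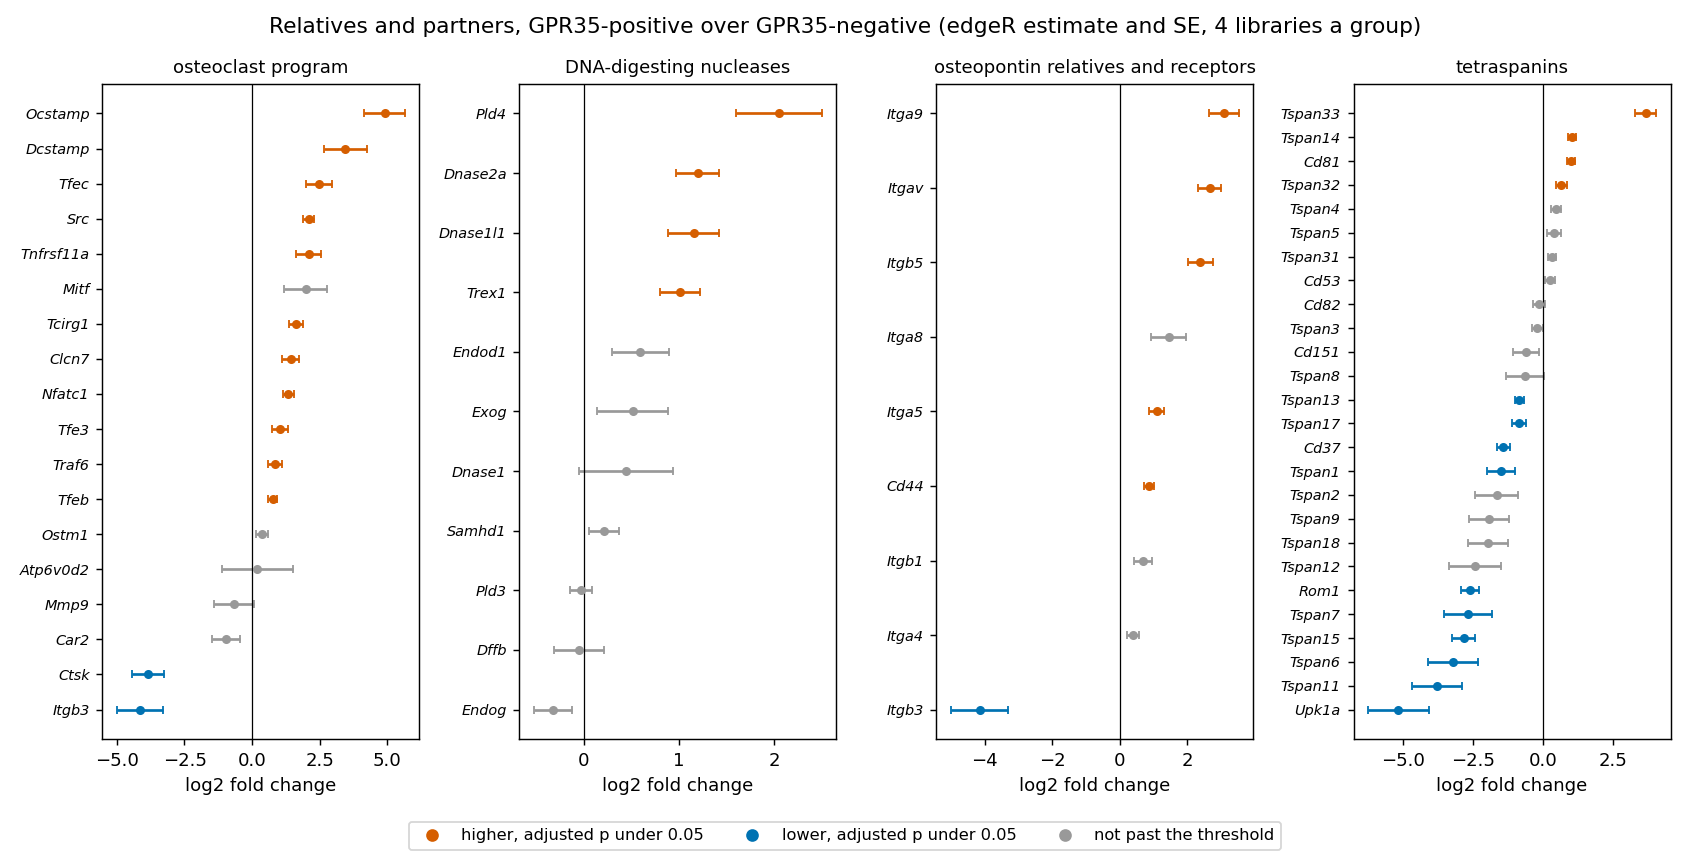
Log2 fold change (GPR35-positive over GPR35-negative) with its SE for the tested genes of 4 lists, coloured by the edgeR call. In the osteoclast list Ocstamp stands at 4.90 and Ctsk and Itgb3 at -3.84 and -4.15, and tetraspanins spread to both sides of 0; with identity scaling every call above 0 in the plot turned negative or ended, except Tspan33.

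Of 4 tested relatives of the pan-macrophage genes, GPR35-positive cells had 3 higher and 0 lower, against 18.5% and 19.5% of all tested genes. Their median log2 fold change was 1.06. With identity scaling 0 were higher and 3 lower, against 65 and 12406 of all 14184 tested genes. Lyz1 averaged 845 ± 136 CPM in GPR35-positive and 152 ± 111 CPM in GPR35-negative libraries (SD, n = 4). Its log2 fold change was 2.47 ± 0.46 (edgeR adjusted p = 0.00355), and 0.26 with identity scaling, where its call ended. Of the Lyz2 windows, 15.4% also occurred in Lyz1. Lyz2 counts per Lyz1 count were 23.0 ± 1.76 in GPR35-positive and 27.1 ± 1.94 in GPR35-negative libraries (SD, n = 4). The part of Lyz2 reads in the counts of Lyz1 was not tested, so its call is not independent of Lyz2. The lysosomal membrane protein gene Lamp1 rose by 1.38 ± 0.25 log2 units (edgeR adjusted p = 0.00326; with identity scaling -1.08). Lamp2 was at 0.74 ± 0.21 (edgeR adjusted p = 0.023; with identity scaling -1.77), a call that ended with library-size scaling and in 8 of 12 fits that left out an animal or a library, including those without replicates 2, 3 and 4 (adjusted p up to 0.135). Aif1l, the relative of Aif1, was at 0.366 ± 0.277 CPM in GPR35-positive and 3.15 ± 2.15 CPM in GPR35-negative libraries and did not pass (-3.08 ± 1.402, edgeR adjusted p = 0.112). It did pass with DESeq2 (adjusted p = 0.0492), with the replicate block (0.026), and without replicate 2 (0.00851) or GPR35-negative replicate 2 (0.0304). With identity scaling it was called lower, at -5.89 (edgeR adjusted p = 0.00322).

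Of 19 other genes of maturing gut macrophages 16 were higher and 0 lower in GPR35-positive cells, against 18.5% and 19.5% of all tested genes. Their median log2 fold change was 2.12. With identity scaling 1 was higher and 3 were lower, against 65 and 12406 of all 14184 tested genes. Tgfbr1, a TGF-beta receptor gene (2.64 ± 0.38), H2-Ab1, an MHC class II gene (2.57 ± 0.38), and Cd74, the invariant chain gene (1.88 ± 0.27), were among the 16 higher (edgeR adjusted p = 0.0011, 0.00127 and 0.00108). With identity scaling Tgfbr1, H2-Ab1 and Cd74 were at 0.26, 0.25 and -0.57, with no call. The integrin gene Itgax, named after its values were seen, had the highest log2 fold change of the 19, at 5.85 (3.42 with identity scaling). Cd163 (-1.50 ± 0.71), Mrc1 (0.71 ± 0.49) and Tgfbr2 (0.625 ± 0.245), named in the same way, overlapped between the populations. These 3 did not pass (edgeR adjusted p = 0.123, 0.276 and 0.0724). Their single values with identity scaling are not given.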

How the data were processed

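The authors deposited raw read counts per gene, whole numbers that differ in total between libraries, with a gene length in bases. Tools and build are mm10, R 3.4.2 and STAR 2.5.2a, per the submitters' processing notes; neither a counting tool nor an annotation is named there. The table has 14980 genes, and 9 rows without a symbol (0.0194% of counts in GPR35-positive and 0.0152% in GPR35-negative libraries on average) were left out of library sizes and tests. Per the labels' protocols, SMART-Seq v4 and Nextera XT were used, which mark neither strand nor molecules, so amplification copies count as reads. Precision read from a count alone covers counting error only, while SD and SE cover the spread between the 4 libraries of a group.

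The 9 genes, the lists and the alternatives were chosen with earlier results of these data known. edgeR 4.0.16 under R 4.3.3 kept genes by filterByExpr (minimum count 10, minimum total 15), scaled by TMM and applied a robust quasi-likelihood F-test without a block, Benjamini-Hochberg adjusted over 14184 genes with a threshold of 0.05. SE is the absolute log2 fold change divided by the root of the F statistic. CPM uses TMM library sizes; log2 CPM for the pattern search and for pairing used a prior count of 2. Genes named from each list were up to 4 per direction with the smallest adjusted p, beside closest relatives. Coordinates come from RefSeq on GRCm38.p6, the same assembly as mm10; sequences were handled in Python 3.11.15. The test was checked on simulated counts in which as many genes rose as fell, so that check does not cover the choice of scaling.

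Populations share animals, so replicate numbers pair the libraries. After subtracting each group's mean, the 2 libraries of an animal correlated across genes at 0.21, 0.21, 0.43 and 0.06 in replicates 1 to 4. The highest correlation of either library with one of the other population from another animal was 0.10, 0.10, 0.24 and 0.24, above the own value in replicate 4; the pairing comes from the animal labels. Replicates differed by a chi-square of at least 26.1 for each degree of freedom, so no library was a copy. Alternatives were RLE and library-size scaling, scaling to 15 macrophage identity genes, no filter, DESeq2 1.42.0, the replicate block, and leaving out animals or libraries.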

Additional observations from a re-analysis of the deposited data

Results flagged for a closer look

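Of 34 sets of 4 libraries examined for a library far from the others (the levels of the 9 genes and Gpr35 and the 7 summed marker lists, in each population), 1 was set apart, and chance alone sets apart about 1 in 20. Granulocyte and mast cell markers summed to 234 CPM in GPR35-negative replicate 2, against 118.9 to 130 CPM in the other 3 GPR35-negative libraries. None of the 9 genes had such a library.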

How the results depend on the processing

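Over all genes, 1692 were higher and 4193 lower with library-size scaling (median log2 fold change of all genes -0.34), and 65 higher and 12406 lower with identity scaling. Over the 8 lists together, 23 were lower with library-size scaling and 23 with DESeq2, and with identity scaling 2 were higher and 84 lower. Leaving out an animal or a library gave 1568 to 2923 genes higher and 1666 to 3023 lower, and 42 to 64 list genes higher and 7 to 18 lower. The lowest counts over all genes came without replicate 3 (1568 higher and 1696 lower) and without replicate 4 (1615 higher and 1666 lower). As few libraries were fitted without replicate 1 (2409 higher and 2365 lower) and without replicate 2 (2041 higher and 2274 lower). The replicate block gave 2755 genes higher and 2830 lower, and ended among the named calls only that of Dtx1, while Aif1l passed.

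With identity scaling 22 of 43 genes named by rule outside the 9 turned in sign, 20 of them called with TMM and 2 not (Acp6 at -2.37 and Dtx2 at -2.44), as did Cd63 (-1.42), Cd9 (-2.35) and Cd68 (-0.17), and Gpr35 and Tspan33 alone among the 43 were still called higher. The 20 were Acp2 (-0.36), Adam17 (-0.70), Hes1 (-1.29), Notch1 (-1.27), Notch2 (-0.65), Dnase2a (-1.28), Trex1 (-1.49), Pld4 (-0.16), Dnase1l1 (-1.26), Cd74 (-0.57), Lamp1 (-1.08), Lamp2 (-1.77), Src (-0.56), Nfatc1 (-1.20), Tcirg1 (-0.86), Cd44 (-1.76), Tspan14 (-1.56), Cd81 (-1.66), Tspan32 (-1.96) and Dtx3l (-0.92). Identity scaling moved the median log2 fold change of all genes from -0.05 to -2.71, and the 20 moved down with it. Why the identity genes differ between the populations was not tested.

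Leaving out an animal or a library kept the sign of all 9 genes, with log2 fold changes of 2.94 to 3.15 for Acp5, 4.09 to 4.69 for Dnase1l3, 2.34 to 2.79 for Dtx4, 3.50 to 4.12 for Spp1, 1.02 to 1.34 for Cd63, 0.36 to 0.85 for Cd9, 1.999 to 2.85 for Lyz2, 1.84 to 2.68 for Cd68 and 2.06 to 2.87 for Aif1. At 33 counts, GPR35-negative replicate 4 is the least precise library for Dnase1l3.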
